A study of Mus musculus with 6 samples.

Results

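The nuclear genes of respiratory complexes II, III, IV and V were examined in gastrocnemius (Gas) muscle of wild-type (WT) and miR-92b knockout (M92KO) mice. The genes were chosen by symbol alone, as every gene of the count table whose symbol was Sdha, Sdhb, Sdhc or Sdhd (complex II), began with Uqcr or was Cyc1 (complex III), began with Cox4 to Cox8 (complex IV) or began with Atp5 (complex V). This gave 48 of 34714 symbols, with 4 genes of complex II, 9 of complex III, 18 of complex IV and 17 of complex V. A symbol holding a hyphen was to be left out, and 0 were.

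The respiratory chain passes electrons from fuel to oxygen across the inner mitochondrial membrane and stores the energy as a proton gradient. Complex II, succinate dehydrogenase, also works in the tricarboxylic acid cycle and feeds electrons to ubiquinone. Complex III hands them to cytochrome c, complex IV uses them to reduce oxygen to water, and complex V is the ATP synthase that the gradient drives. Complexes III, IV and V also hold subunits encoded by the mitochondrial genome, which were not analysed here. Several complex IV subunits exist as pairs of paralogs, with 1 form typical of heart and skeletal muscle and another of most other tissues.

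The 3 M92KO mice were global knockouts (miR-92b-/-) on a C57BL/6JGpt background, so the microRNA was missing from every cell type and throughout life, and the 3 WT controls were C57BL/6 mice of the same age. All mice were 8 weeks old and without treatment, and had standard diet and water at will. The paper's supplementary methods describe an overnight fast before muscle was taken, without naming the sequenced samples. The paper states that its knockout mice were male. Whole Gas muscle was used, a mixed and mostly fast-twitch muscle that also holds vessels, nerve and connective tissue. Whether the WT mice were littermates of the M92KO mice is not stated in the sources used here. Each library was a separate sample of its group, and p-values measure the spread between these samples. The unnormalized counts summed to between 33160508 and 48209846 reads a library, and the M92KO libraries were the 3 smallest. Levels are given as CPM, read counts scaled to library size with TMM factors. The limit that 3 counts in a library allow lay between 0.0629 and 0.0916 CPM and covers counting error only. The row of the deleted microRNA was not analysed here, so the genotype could not be checked from these counts.

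The microRNA makes a 3p and a 5p strand from a hairpin on chromosome 3 (GRCm38.p6, RefSeq), and their seeds (bases 2 to 8, in capitals) are the parts that pair with targets, so they are shown first. The 3p strand lies at chr3:89227126-89227147 and the 5p strand at chr3:89227165-89227188, both on the minus strand.
mmu-miR-92b-3p: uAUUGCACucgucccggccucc
mmu-miR-92b-5p: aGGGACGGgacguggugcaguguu

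Of the 45 genes that could be tested, 2 held a match to the 3p seed of 7 or 8 bases in the 3′-UTR of a principal transcript (GENCODE M21), whereas 1738 of the 13552 tested genes with a 3′-UTR did (12.8%). The same number, 2 of 45, held a match to the 5p seed, against 702 tested genes (5.18%). The 3′-UTRs of the respiratory genes were short, with a median of 186 bases against 1037 bases, so they offered fewer places for a match. The matches lay in Uqcrfs1 (chr13:30540484-30540511, minus strand) and Atp5pb (chr3:105942705-105942731, minus strand) for the 3p strand, and in Atp5g1 (chr11:96073066-96073093, minus strand) and Cox4i2 (chr2:152764882-152764902, plus strand) for the 5p strand. These are the sites in which a direct effect of the deletion could be looked for, and the capitals mark the site. In Uqcrfs1 and Atp5g1 all 7 capital letters pair with bases 2 to 8 of the strand. In Atp5pb and Cox4i2 the first 6 capitals pair with the seed without its last base, and the closing A stands opposite base 1, whatever that base is (a site of the A1 type).
Uqcrfs1: gacttgaaagGTGCAATgtctttgatag
Atp5pb: taaagcatctTGCAATAaaatgtttga
Atp5g1: ggtcacccagCCGTCCCtgctgctttga
Cox4i2: ccaaCGTCCCAcgtctgccgc

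The pair of genes with a 3p match differed between the genotypes by less than the SD of a group. Uqcrfs1, the Rieske iron-sulfur protein of complex III, had 677, 705 and 651 CPM in WT and 673, 673 and 702 CPM in M92KO mice, a log2 fold change of 0.01 (SE 0.0689). Atp5pb, the b subunit of the stalk of ATP synthase, had 915, 970 and 889 CPM in WT and 899, 916 and 1012 CPM in M92KO mice, a log2 fold change of 0.03 (SE 0.0792). A match is a description of letters, and binding was not measured in these data.

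No gene of complexes II to V differed between the genotypes after adjustment, and nearly all measured differences were small. With edgeR's quasi-likelihood test on 15788 genes and Benjamini-Hochberg adjustment over all of them, 0 of the 45 tested genes had an adjusted p under 0.05, as did 0 of all genes (0%). The adjusted p of the 45 genes lay between 0.361 and 0.986. At an unadjusted p under 0.05, 1 of the 45 (2.22%) was higher in M92KO mice, where 5.47% of all genes tested were, and 0 were lower, where 6.92% were. Without adjustment 12.4% of all genes passed in either direction. DESeq2's Wald test gave 0 of the 45 genes with an adjusted p under 0.05, although it called 312 genes in all, and named the same single gene without adjustment. Whether a difference would come from fewer cells or fibres of a type or from less RNA in each cannot be told apart in whole muscle.

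The differences were small and their errors narrow. The log2 fold change (M92KO minus WT) had a size under 0.1 in 40 of the 45 genes (88.9%), against 42.7% of all genes tested, and its median size was 0.053 against 0.122. Its standard error had a median of 0.074 against 0.123 for all genes. All genes tested were not matched to the 45 by level, and the part of abundance in these contrasts was not tested. The differences ran from a level 12.6% lower to a level 15.6% higher in M92KO mice. The 95% intervals of 44 of the 45 genes lay within 0.5 on either side of 0, and the exception was Cox4i2, the least abundant of them. In 33 genes the difference was smaller than the larger of the SDs of the groups.

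More of the genes were above 0 than below it. The fitted difference was above 0 in 33 genes and below 0 in 12, with a median of 0.035 against 0 for all genes, but this lean depended on the processing, since 18 of 45 were above 0 once per-library offsets removed dependence on GC content and length, and 19 of 45 when the study's supplementary methods were followed. All 3 M92KO values lay outside the range of the WT values in 7 of the 45 genes (15.6%), against 18.4% of all genes tested. They lay above it in 6 genes (Uqcrb, Uqcrh, Cox6a2, Cox6b1, Cox7a2 and Atp5l; 13.3% against 8.77% of all genes) and below it in 1 gene (Cox4i2; the background is 9.58%).

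**Figure D1:**
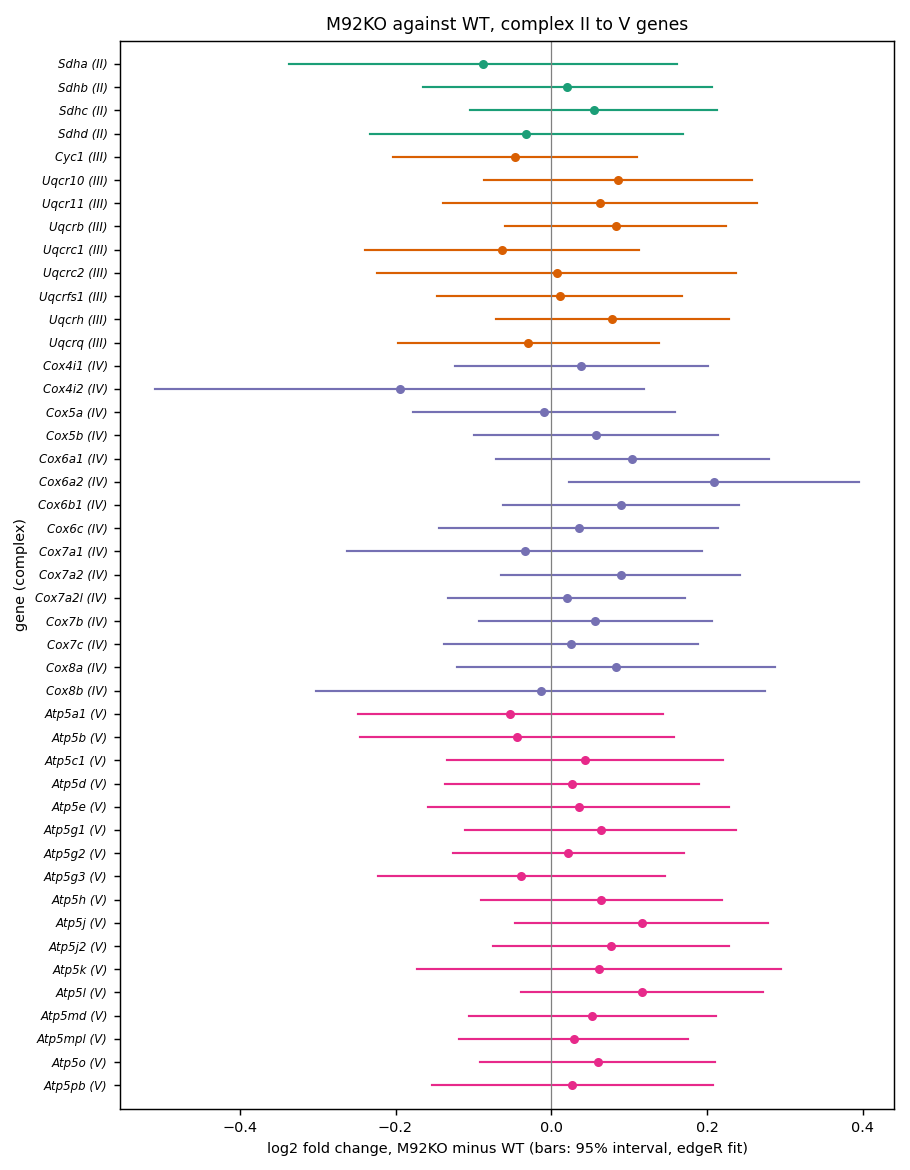
Fitted log2 fold change (M92KO minus WT, horizontal axis) with its 95% interval (bar) for each of the 45 tested genes (vertical axis), coloured by complex, from edgeR with 3 libraries a genotype. The points lie between -0.19 (Cox4i2) and 0.21 (Cox6a2), and 1 interval, that of Cox6a2, leaves out 0.

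The genes of complex II overlapped between the genotypes, and their widest spread was among the M92KO mice. Sdha, the catalytic flavoprotein, had 1299, 1335 and 1270 CPM in WT and 1027, 1280 and 1368 CPM in M92KO mice. The first M92KO library lay below every other library and the third above every other one, so the M92KO mean of 1225 ± 177 CPM (SD, n = 3) took in the WT mean of 1301 ± 32.4 CPM. The log2 fold change was -0.09 (SE 0.109, edgeR adjusted p = 0.8), and it was 0.02 without M92KO 1. Sdhb, the iron-sulfur subunit, had 525, 561 and 523 CPM in WT and 533, 506 and 594 CPM in M92KO mice, a log2 fold change of 0.02 (SE 0.0812, edgeR adjusted p = 0.947). Its M92KO values lay on both sides of the WT range. The membrane anchors that hold the heme and the quinone site were as close. Sdhc had 331, 333 and 310 CPM in WT and 338, 320 and 352 CPM in M92KO mice (log2 fold change 0.05, SE 0.0695), and Sdhd had 336, 345 and 307 CPM against 289, 331 and 346 CPM (log2 fold change -0.03, SE 0.088). The median over the 4 genes was -0.006 (-0.049 with GC and length offsets), with 2 above and 2 below 0, and their 95% intervals together ran from -0.337 to 0.213.

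Complex III held 9 tested genes, 6 above and 3 below 0, with a median log2 fold change of 0.011 (-0.027 with GC and length offsets) and 95% intervals within -0.239 and 0.264. The core proteins Uqcrc1 and Uqcrc2, the largest subunits, had log2 fold changes of -0.06 and 0.01. Uqcrc1, the most abundant gene of the complex, had 989, 1069 and 954 CPM in WT and 926, 958 and 999 CPM in M92KO mice (log2 fold change -0.06, SE 0.0769, edgeR adjusted p = 0.793). Its groups overlapped. Cyc1, which carries the heme of cytochrome c1, had a mean of 543 ± 18.6 CPM in WT and 525 ± 19.6 CPM in M92KO mice, a log2 fold change of -0.05.

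The small supernumerary subunits of complex III gave its smallest p-values, none of them under 0.05. Uqcrb, next to the ubiquinone site, had 291, 293 and 284 CPM in WT and 312, 298 and 308 CPM in M92KO mice. All M92KO values were above all WT values, by a log2 fold change of 0.08 (SE 0.062, edgeR adjusted p = 0.652), although with GC and length offsets the difference was -0.01. Uqcrh, the hinge protein that contacts cytochrome c1, had 308, 315 and 296 CPM against 317, 317 and 337 CPM, again without overlap (log2 fold change 0.08, SE 0.0658, edgeR adjusted p = 0.689). The gap between the nearest WT and M92KO values was small beside the range within a group. Uqcr10 had 239, 223 and 228 CPM against 265, 237 and 231 CPM, with overlapping groups and a log2 fold change of 0.09 (SE 0.0754). Uqcr11 and Uqcrq had log2 fold changes of 0.06 and -0.03.

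Complex IV held 15 tested genes, 11 above and 4 below 0, with a median of 0.039 (-0.007 with GC and length offsets), and it held both ends of the range over all complexes. Cox6a2, the heart and muscle form of subunit VIa, was the single gene with an unadjusted p under 0.05. It had 539.7, 529 and 521 CPM in WT and 675, 569 and 594 CPM in M92KO mice. All M92KO values were above all WT values, with M92KO 1 the highest, and the means were 530.0 ± 9.31 and 613 ± 55.7 CPM (SD, n = 3). The log2 fold change was 0.21 (SE 0.0815, 95% interval 0.02 to 0.40, edgeR p = 0.0318, adjusted p = 0.361), and the exact permutation test over the mice gave p = 0.1, the smallest that 3 against 3 allows. The unadjusted call was lost without any 1 of the WT libraries and by the study's supplementary methods, and the log2 fold change was 0.14 with GC and length offsets, 0.13 without M92KO 1 and up to 0.26 when another library was left out. Exons of Cox6a2 overlap those of Itgad on the opposite strand. Since the strandedness of the counting is not given, reads from the shared stretch cannot be told apart. Uqcrb, Atp5j, Atp5a1, Cox4i1 and others of the genes also have exons that overlap a gene on the opposite strand.

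Cox4i2, the minor form of subunit IV known from lung and from low oxygen, stood at the other end. It had 4.35, 4.71 and 4.21 CPM in WT and 4.03, 3.45 and 4.10 CPM in M92KO mice, from 113 to 201 counts a library. All M92KO values were below all WT values, with a log2 fold change of -0.19 (SE 0.138, 95% interval -0.51 to 0.12, edgeR adjusted p = 0.631). This gene carries 1 of the 5p seed matches shown above. Atp5g1, which carries the other, had a log2 fold change of 0.06 (SE 0.0763), and an effect of the matches was not tested. Cox4i1, the abundant partner of Cox4i2, had 986, 1058 and 994 CPM against 1072, 1021 and 1028 CPM, a log2 fold change of 0.04 (SE 0.0713, edgeR adjusted p = 0.873) with overlapping groups.

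The other subunits of complex IV without overlap were Cox6b1 and Cox7a2. Cox6b1, on the side that faces cytochrome c, had 356, 359 and 352 CPM in WT and 366, 370.2 and 399 CPM in M92KO mice (log2 fold change 0.09, SE 0.0664, edgeR adjusted p = 0.646). Cox7a2, the form of subunit VIIa found in most tissues, had 204, 204 and 196 CPM against 206, 209 and 227 CPM (log2 fold change 0.09, SE 0.067, edgeR adjusted p = 0.652). In both genes the third M92KO library stood apart from the other M92KO libraries, which lay close to the WT values. Cox7a2l had a log2 fold change of 0.02, and Cox7b one of 0.06. Of the genes outside these pairs, Cox5a, Cox5b, Cox6c and Cox7c lay between -0.01 and 0.06.

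The muscle forms of complex IV subunits exceeded their partners in both genotypes when levels were set per length (CPM per kb of the shortest principal transcript). Cox6a2 made up 94.96 ± 0.236% of the sum of Cox6a1 and Cox6a2 in WT and 95.3 ± 0.237% in M92KO mice. Cox8b made up 91.8 ± 0.207% of the Cox8 pair in WT and 91.2 ± 1.26% in M92KO mice, and Cox7a1 made up 68.8 ± 1.5% of the Cox7a pair in WT and 66.9 ± 2.06% in M92KO mice. These shares differed by less than the larger SD for Cox8b and Cox7a1, and the ranges of all 3 overlapped between the genotypes. The share of Cox4i2 in the Cox4i pair was 0.450%, 0.454% and 0.432% in WT and 0.384%, 0.345% and 0.407% in M92KO mice, which did not overlap and was not tested. Cox8b varied most among the M92KO mice, with 238, 165 and 205 CPM against 222, 195 and 198 CPM in WT, and its log2 fold change was -0.01 (SE 0.126, edgeR adjusted p = 0.978). Cox7a1 had a log2 fold change of -0.03 (SE 0.0998), Cox6a1 one of 0.10 (SE 0.0769) and Cox8a one of 0.08 (SE 0.0894).

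The 3 genes that did not pass the filter on low counts are all complex IV forms known from testis. The WT libraries held 13, 10 and 12 reads of Cox6b2 and the M92KO libraries 8, 8 and 11 reads, or between 0.2304 and 0.303 CPM. Cox7b2 had 0 counts in 5 libraries and 2 counts in M92KO 3, and Cox8c had 0 counts in all 6 libraries, which allows a level of up to 0.0916 CPM in the shallowest library. Per length, Cox6b2 made up between 0.0835% and 0.105% of the Cox6b pair in the 6 mice.

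**Figure D2:**
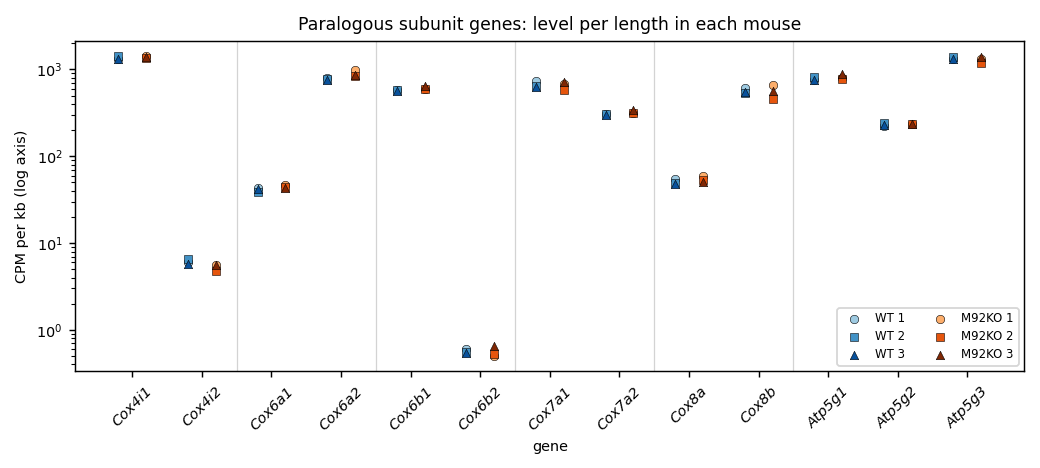
Level per length (CPM per kb, log axis) of paralogous subunit genes in each of the 6 mice, with WT in blue and M92KO in orange and brown; vertical lines part the families. The muscle forms Cox6a2 and Cox8b lie far above Cox6a1 and Cox8a, and the genotypes sit side by side in each gene; Cox7b2 and Cox8c are not drawn.

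Complex V held 17 tested genes, 14 above and 3 below 0, with a median of 0.043 (0.003 and 9 above 0 with GC and length offsets) and 95% intervals within -0.249 and 0.295. The 3 below 0 were Atp5a1 and Atp5b of the catalytic head and Atp5g3 of the membrane ring. Atp5b, the beta subunit and the most abundant of all the genes, had 4204, 4353 and 4121 CPM in WT and 3778, 4217 and 4301 CPM in M92KO mice, a log2 fold change of -0.04 (SE 0.0881, edgeR adjusted p = 0.884). The first M92KO library was the lowest of the 6, and without it the difference was 0.01. Atp5a1, the alpha subunit, is named because of its values under another processing. It had 3306, 3513 and 3212 CPM in WT and 3072, 3168 and 3434 CPM in M92KO mice (log2 fold change -0.05, SE 0.086, edgeR adjusted p = 0.853). When the study's supplementary methods were followed, it alone among the respiratory genes had an unadjusted p under 0.05, at a log2 fold change of -0.19 (limma adjusted p = 0.22). The central stalk genes Atp5c1, Atp5d and Atp5e lay between 0.03 and 0.04.

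The genes of the peripheral stalk and the membrane part of ATP synthase had its smallest p-values. Atp5l, subunit g, had 329.8, 349.5 and 315 CPM in WT and 354, 356 and 368 CPM in M92KO mice, all above the WT values, with a log2 fold change of 0.12 (SE 0.0682, edgeR adjusted p = 0.547). Its exons overlap those of Gm30934 on the opposite strand. Atp5j, coupling factor 6, had 445, 433 and 412 CPM against 463, 445 and 489.9 CPM, with a log2 fold change of 0.12 (SE 0.0711, edgeR adjusted p = 0.564). The lowest M92KO value of Atp5j lay just below the highest WT value. Atp5j2, subunit f, had 356, 363 and 358 CPM against 385, 358 and 392 CPM (log2 fold change 0.08, SE 0.0666), and Atp5h, subunit d, had 355, 368 and 334 CPM against 366, 362 and 377 CPM (log2 fold change 0.06, SE 0.0677). Both overlapped between the genotypes. Atp5k, Atp5md, Atp5mpl and Atp5o lay between 0.03 and 0.06.

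The proton-carrying ring of complex V is built from a single protein that 3 genes encode. Atp5g1 had a log2 fold change of 0.06 (SE 0.0763), Atp5g2 one of 0.02 (SE 0.065) and Atp5g3 one of -0.04 (SE 0.0807). Per length, Atp5g3 supplied 56.9 ± 0.313% of the 3 in WT and 55.3 ± 1.09% in M92KO mice, and Atp5g1 supplied 33.2 ± 0.319% and 34.6 ± 0.854%. The share of Atp5g1 was above every WT value in all 3 M92KO mice, at 33.7%, 35.3% and 34.9% against 33.2%, 33.5% and 32.8%, and this was not tested. Principal transcripts of Atp5g1 differ much in length, so its place above Atp5g2 rests on the choice of transcript. Atpif1, the inhibitor of ATP synthase, is not one of the 48 genes and had 14.1, 13.4 and 14.1 CPM in WT and 15.6, 12.5 and 14.98 CPM in M92KO mice (log2 fold change 0.05, SE 0.103, edgeR adjusted p = 0.895).

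Summed over its genes, each complex had overlapping levels in the genotypes. Complex II summed to 2491, 2574 and 2410 CPM in WT and 2186, 2437 and 2660 CPM in M92KO mice. Complex III summed to 4298, 4474 and 4176 CPM against 4225, 4228 and 4487 CPM. Complex IV summed to 5230, 5283 and 5060 CPM against 5514, 5195 and 5440 CPM. M92KO 1 was the lowest library for complexes II and V and the highest for complex IV. Complex V summed to 14320, 15003 and 14031 CPM against 13904, 14200 and 15121 CPM. All 48 genes together took 2.71%, 2.76% and 2.54% of the reads of the WT libraries and 2.59%, 2.57% and 2.72% of those of the M92KO libraries. The beta subunit and Atp5a1 carry much of the sum of complex V, so these sums follow the abundant genes. Per length the order over all genes began with Atp5b at a mean of 2172 CPM per kb, with lowest and highest libraries of 1972 and 2272. Cox4i1 (1378), Atp5a1 (1329) and Atp5g3 (1323 CPM per kb) came next, and their ranges over the libraries overlapped.

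**Figure D3:**
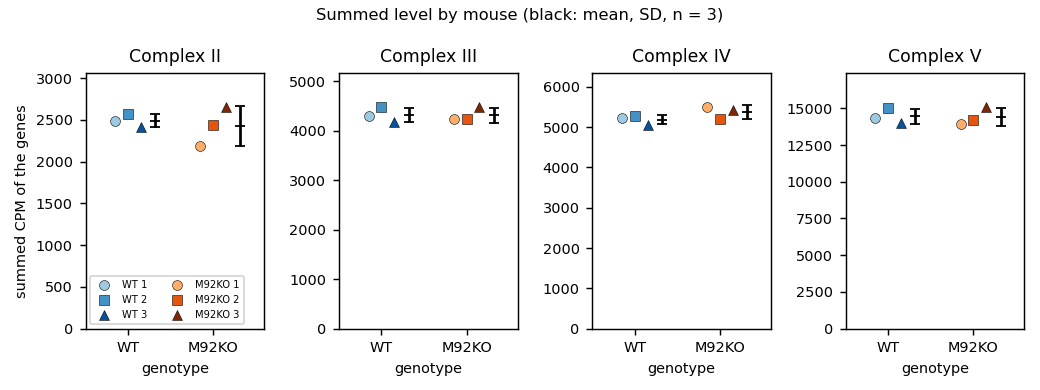
Summed CPM of the genes of each complex (vertical axis from 0, a panel for each complex) in each mouse by genotype, with the mean and SD (black, n = 3). The symbols of WT and M92KO mice overlap in every complex, and the M92KO sums of complex II run from 2186 to 2660 CPM.

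The spread among mice followed patterns that many of the genes shared. M92KO 3 had the highest value of the 6 libraries in 22 of the 45 genes and the lowest in 0, whereas WT 3 had the lowest in 17 and the highest in 0. M92KO 2 was the lowest in 13 genes and the highest in 0. The median coefficient of variation was 3.91% among WT and 5.27% among M92KO mice. WT 3 lay above the gene's own mean in 4 of the 45 genes and M92KO 3 in 38 of them.

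**Figure D4:**
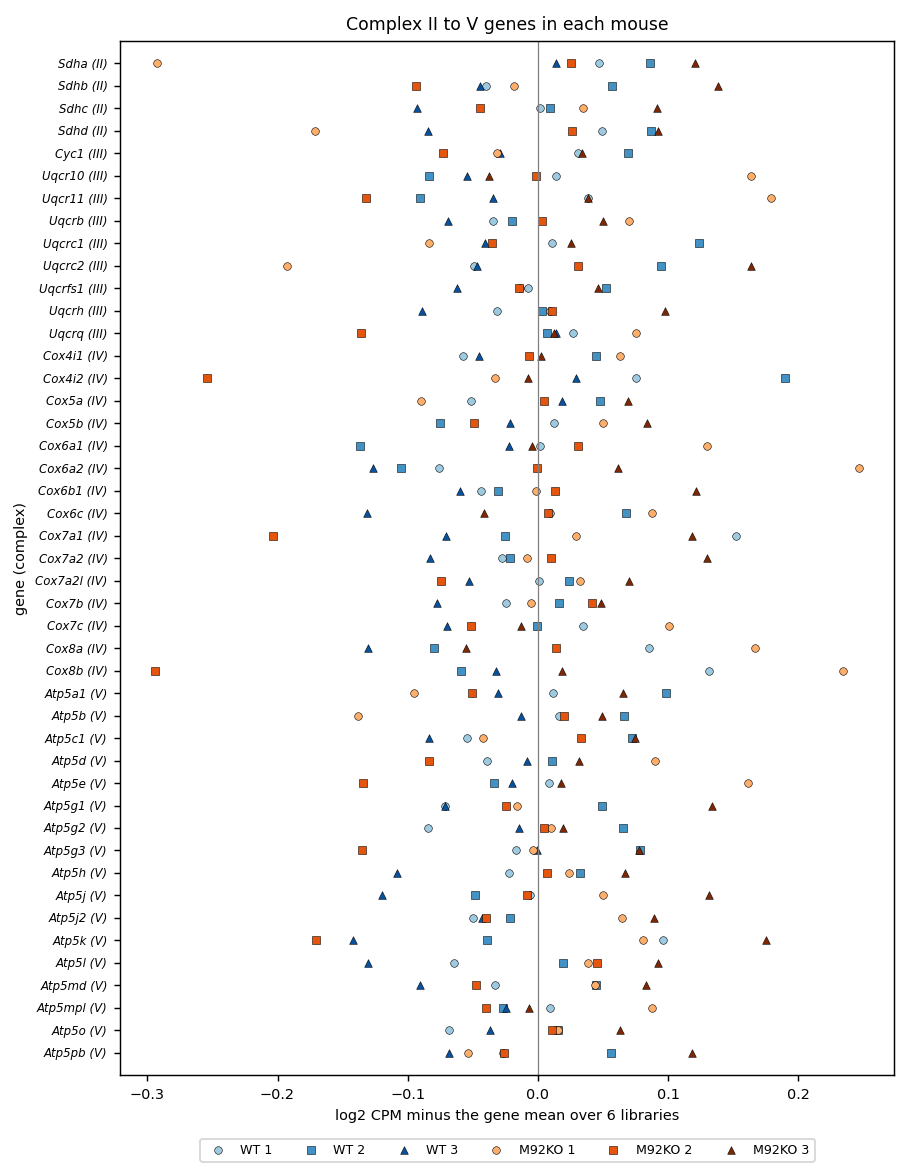
Log2 CPM of each mouse minus the gene's mean over the 6 libraries (horizontal axis) for each of the 45 tested genes (vertical axis), with WT in blue and M92KO in orange and brown. M92KO 3 (dark brown triangles) lies right of 0 in 38 genes and WT 3 (dark blue triangles) in 4, and the genotypes are not apart.

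M92KO 1 differed from the others by transcript length. It had the highest value in 14 genes, 13 of them with a principal transcript under 1000 bases, and the lowest value in 7 genes, 6 of them of 1000 bases or more. The median deviation from the gene's mean in this library was 0.063 over the 29 shorter genes and -0.037 over the 16 longer ones, on the log2 scale. Across the 45 genes, which share a library and are not independent, Spearman's rho between deviation and length was -0.681 in M92KO 1 and between -0.163 and 0.618 in the other libraries. Over 14749 tested genes it was -0.341 in M92KO 1 and between 0.003 and 0.145 in the others. There the length was that of the gene's longest annotated transcript and not of the principal one. Sdha, Uqcrc2 and Atp5b are long and lay low in M92KO 1, and Cox6a2, Cox8b and Uqcr11 are short and lay high in it. Without M92KO 1, 401 of all genes tested had an adjusted p under 0.05 and 0 of the respiratory genes did, 1 respiratory gene (Cox6a2) was higher at an unadjusted p under 0.05, where 9.62% of all genes in that fit were, and 31 of 45 were above 0. With the GC and length offsets the median over the 45 genes was -0.010. The part of RNA or library quality in this pattern was not tested.

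**Figure D5:**
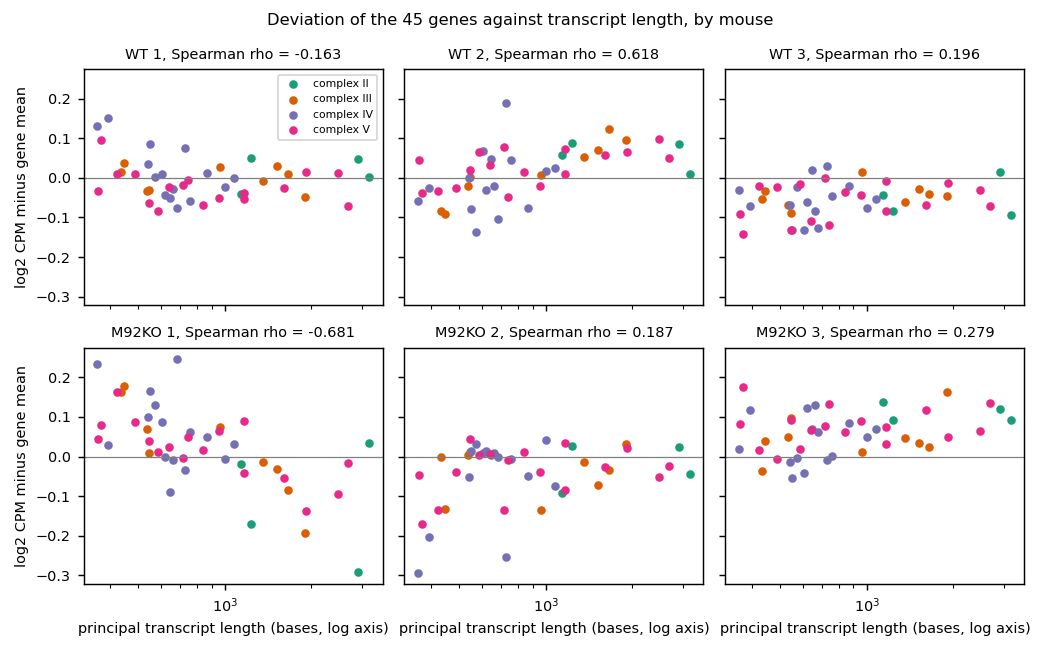
Deviation of each tested gene from its mean (log2 CPM, vertical axis) against principal transcript length (bases, log axis), a panel for each library, with points coloured by complex. The points fall from short to long transcripts in M92KO 1 (rho -0.681) and rise in WT 2 (rho 0.618).

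Markers of fibre types and of other cells also moved between mice. The tissue had its markers, since the list of 6 skeletal muscle fibre genes summed to between 85100 and 95870 CPM in WT and 87220 and 97500 CPM in M92KO mice. Heart muscle genes summed to at most 9.04 CPM, and Ucp1, which defines brown fat cells, was at 0. Myh2, the myosin of fast oxidative fibres, had 2124, 2239 and 1612 CPM in WT and 2018, 3575 and 4099 CPM in M92KO mice (log2 fold change 0.70, SE 0.242, edgeR adjusted p = 0.314), and Mb, the oxygen store of muscle, had 6490, 6583 and 5628 CPM against 5801, 6275 and 7810 CPM. The slow or oxidative fibre genes went different ways. Of the 10, 4 were above and 6 below 0, with a median log2 fold change of -0.223. At an unadjusted p under 0.05, 2 were higher (Myh2 and Myoz2) and 1 lower (Tpm3), and all M92KO values lay below all WT values in 2 (Tpm3 and Atp2a2). Myh2 carried most of the level of the list, which summed to between 1904 and 2630 CPM in WT and between 2251 and 4496 CPM in M92KO mice. Of the 9 fast fibre genes 0 were called. Fibroblast genes summed to between 1709 and 2270 CPM in WT and between 1151 and 1597 CPM in M92KO mice, with 3 of 6 lower at an unadjusted p under 0.05. Of the 6 skeletal muscle fibre genes 1 was higher (Des, log2 fold change 0.23) and 0 were lower. The Schwann cell list had 3 of 6 lower, the endothelial list 1 of 6 and the leukocyte list 1 of 5, while the fat and red cell lists had 0 called genes. Beside these counts, 5.47% of all genes tested were higher and 6.92% lower at this threshold. All M92KO values lay below all WT values in 9.58% of all genes tested. The 4 tested fat cell genes and the 5 tested red cell genes were all above 0. Their median log2 fold changes were 0.793 and 0.663, though the fat cell list summed to at most 6.11 CPM. All 6 fibroblast genes were below 0. Over all genes tested, 7891 of 15788 were above 0. The part of fibre type or of other cells in the levels of the respiratory genes was not tested.

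Several genes of proteins that build the complexes had higher levels in M92KO mice before adjustment. Of the 41 tested assembly factors, 6 (14.6%) were higher at an unadjusted p under 0.05, beside 5.47% of all genes, and 0 were lower. All M92KO values lay above every WT value in 8 of the 41 (19.5%), beside 8.77% of all genes, and these 8 included the 6. The list had a median difference of 0.088 on the log2 scale. None passed adjustment, with an adjusted p from 0.179 upward. Cox19, a copper-handling factor of complex IV assembly, had 31.8, 31.8 and 30.9 CPM in WT and 37.5, 37.5 and 39.1 CPM in M92KO mice (log2 fold change 0.27, SE 0.0618, edgeR adjusted p = 0.179). The gap between the groups was wider than the range within either. Sdhaf4, which helps to mature the flavoprotein of complex II, had 28.2, 29.98 and 28.1 CPM against 33, 32.7 and 34.1 CPM (log2 fold change 0.21, SE 0.066, edgeR adjusted p = 0.274). Surf1, a complex IV factor whose loss causes Leigh syndrome in people, had 21.6, 22.1 and 20.8 CPM against 28.2, 24.2 and 24.5 CPM (log2 fold change 0.25, SE 0.0843, edgeR adjusted p = 0.295). Coa4 for complex IV, Ttc19 for complex III and Tmem70 for complex V were the other 3, with log2 fold changes of 0.31, 0.18 and 0.16. With GC and length offsets 27 of the 41 were above 0, against 32 without them, and the median was 0.059. The difference between the assembly factors and the subunits was not tested.

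No gene of the electron carrier or complex I passed adjustment. Cycs, the cytochrome c that links complexes III and IV, had 655, 678 and 605 CPM in WT and 651, 716 and 719 CPM in M92KO mice (log2 fold change 0.11, SE 0.0785, edgeR adjusted p = 0.649), with overlapping groups. Of 40 complex I genes, 1 (2.5%) was higher and 0 lower at an unadjusted p under 0.05, with a median log2 fold change of 0.036. There were 34 of them above 0, and 15 with the GC and length offsets.

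Some promoters of the respiratory genes held motifs that the choice by symbol had not used, and most of them lacked any given motif. RefSeq entries (GRCm38.p6, 250 bases before to 50 bases after a start) were matched for 36 of the 48 genes, and both strands were searched. Cox6b2 and Cox7b2, which did not pass the filter on low counts, are among the 36 and held none of the motifs. The NRF1 motif (GCGCANGCG), bound by a factor known for driving nuclear genes of mitochondria, stood in 12 of the 36 (33.3%), against 13.1% of 12493 tested genes with an entry and 7.03% of all 27025. The ETS motif (CCGGAAG), which GABP can bind, stood in 13 (36.1%), against 17.5% of tested genes. The YY1 motif (AAGATGGC) stood in 3 (8.33%), against 4.68%, and the ERR motif (TCAAGGTCA) in 2 (5.56%), against 0.352%. Sdhd held the NRF1 and the ERR motif, as did Atp5g3. Windows from both and from Cox6a1, Uqcrc1 and Atp5l are shown as examples for complexes II to V, with the motif in capitals (the reverse complement where the motif lies on the other strand). They lie at chr9:50603910-50603938 and chr9:50603800-50603823 (Sdhd, minus strand), chr2:73911360-73911388 (Atp5g3, minus strand), chr5:115349102-115349130 (Cox6a1, minus strand), chr9:108936668-108936696 (Uqcrc1, plus strand) and chr9:44920965-44920992 (Atp5l, minus strand).
Sdhd, NRF1: tcgctggggtGCGCACGCGcggtggcagc
Sdhd, ERR: ggttgtagagTGACCTTGAgccct
Atp5g3, ERR: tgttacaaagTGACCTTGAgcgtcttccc
Cox6a1, NRF1: caggaacgggGCGCATGCGcgctctcgct
Uqcrc1, NRF1: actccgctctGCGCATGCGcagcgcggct
Atp5l, NRF1: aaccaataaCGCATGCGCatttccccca

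The 5 genes shown had log2 fold changes between -0.06 (Uqcrc1) and 0.12 (Atp5l). Cox6a2 had no promoter entry.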

How the data were processed

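The authors deposited unnormalized read counts per gene symbol for Gas muscle of 3 WT and 3 M92KO mice (SMARTer mRNA-seq kit). The submitters' processing notes name GRCm38 and mm10. The aligner, the counting program and the strandedness are not given in the sources used here. The genes and gene lists were chosen with earlier results of these data known. Counts were filtered with filterByExpr (minimum count 10, minimum total count 15), scaled with TMM and compared with edgeR 4.0.16 (R 4.3.3, glmQLFit and glmQLFTest, no covariate, all 6 libraries), with Benjamini-Hochberg adjustment over the 15788 genes left. CPM values are mean ± SD over 3 mice. The exact permutation test on log2 CPM was two-sided. Genes named were all of complex II, in the other complexes the 4 with the smallest p and the most abundant, paralog families, genes whose groups did not overlap, genes that did not pass the filter and up to 3 genes of other lists. Further ones were chosen after their values were seen. Of the symbols, 25739 matched GENCODE M21 (GRCm38) directly and 419 by a synonym. Those annotations gave lengths, 3′-UTRs and overlaps, and many of these genes have processed pseudogenes that could share reads. Of the tested genes, 14749 (93.4%) had GC content and length. Alternatives were DESeq2 size factors, DESeq2 1.42.0, other filters, the steps of the supplementary methods (normalizeBetweenArrays, log2 of the value plus 1, limma 3.58.1), a replicate block, lowess offsets (span 0.3) and each library left out. The supplementary steps were run on the unfiltered counts, and the paper does not state what their input held. They gave 2287 genes with an unadjusted limma p under 0.05, more than the paper reports. On simulated data of this design edgeR called 159 of 197 genes (80.7%) changed by 1 on the log2 scale and 6 unchanged genes. Smaller changes, of the size measured in the respiratory genes, were not simulated. Depth was at least 33160508 counts a library.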

Additional observations from a re-analysis of the deposited data

How the results depend on the processing

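In every alternative run, 0 genes of complexes II to V had an adjusted p under 0.05. At an unadjusted p under 0.05, the number of genes higher in M92KO mice was 0 with a replicate block, 0 with the block and GC and length offsets, 0 with the steps of the supplementary methods and 0 to 1 with each library left out, against 1 as reported; the number lower was 1 (Atp5a1) with the supplementary steps. For Cox6a2 edgeR's p was 0.0571 with the block (log2 fold change 0.21), 0.0994 with block and offsets (0.14) and 0.268 (limma, 0.14) with the supplementary steps, and between 0.0193 and 0.09 with a library left out. Same-numbered WT and M92KO libraries deviated together with correlations of 0.015 to 0.081 and every library but WT 3 correlated best with its own number, a hint from the data and not from the design. The numbers were therefore not taken as pairs. Over all genes the block moved the calls at an unadjusted p under 0.05 from 1955 to 1691 and gave 2 genes with an adjusted p under 0.05.

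With the supplementary steps the median log2 fold change was -0.044 in complex II, -0.041 in complex III, -0.006 in complex IV and -0.003 in complex V. With GC and length offsets it was -0.049, -0.027, -0.007 and 0.003 in complexes II to V, and with block and offsets -0.054, -0.028, -0.008 and 0. With each library left out it ran from -0.067 to 0.038 in complex II and from -0.018 to 0.040 in complex III. The range was 0.018 to 0.062 in complex IV and 0.018 to 0.073 in complex V. Some genes changed sign around 0, and the values listed next are only of genes named by rule. Other genes changed sign too. Among them were Cox7c (-0.06) and Atp5mpl (-0.05) with GC and length offsets and Atp5pb (-0.04) with the supplementary steps. With the supplementary steps the log2 fold change was -0.04 for Sdhb, -0.01 for Cox7a2l and Cox7b, and 0.00 for Atp5g1 and Atp5g2. With GC and length offsets it was -0.02 for Sdhb, Cox4i1 and Atp5g2, -0.01 for Uqcrb, Cox7b and Atpif1, and -0.03 for Cox7a2l. With block and offsets it was -0.03 for Sdhb, Cox4i1 and Cox7a2l, -0.01 for Uqcrb, Cox7b and Atpif1, and -0.02 for Atp5g2. With each library left out, the difference crossed 0 in 21 of the 45 genes. Among the genes named by rule these ranges were -0.17 to 0.02 for Sdha, -0.05 to 0.07 for Sdhb, -0.09 to 0.04 for Sdhd, -0.10 to 0.05 for Cox7a1, -0.01 to 0.06 for Cox7a2l, -0.15 to 0.11 for Cox8b, -0.01 to 0.14 for Atpif1, -0.08 to 0.01 for Atp5b, -0.01 to 0.06 for Atp5g2 and -0.09 to 0.02 for Atp5g3. The cause of these changes was not tested. These results covered the counts of called genes, the complex medians and the genes named by rule. The other 437 of them under alternatives kept direction and side of the threshold, or moved by less than the spread between replicates. Depth limits only Cox4i2 and the 3 genes that did not pass the filter.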
